A study of Mus musculus with 6 samples.

Results

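The 10 circadian clock genes Per1, Per2, Per3, Cry1, Cry2, Arntl, Clock, Nr1d1, Nr1d2 and Dbp were followed in RNA sequencing libraries of mouse bone marrow cells. They are core and output genes of the clock, picked by symbol from the 53465 genes of the deposited expression table, and each symbol stood in 1 row only. Wild-type mice were given 5.0 Gy of radiation to the whole body and then either saline or carnosine, which joins beta-alanine to histidine. Cells of the long-term haematopoietic stem cell gate (lineage-negative, Sca-1+, c-Kit+, Flk2-, CD34-) were then isolated. Each treatment had 3 libraries, both groups carried the irradiation, and unirradiated mice were not among the samples analysed. The labels give neither the carnosine dose nor the interval between irradiation and collection, and nothing ties the replicates of a treatment to individual animals. P-values therefore reflect the variation among these 6 libraries alone, and that may be technical. No hour of collection is given either, and the part of time of day in any difference between the groups was not tested.

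The mammalian clock is a feedback loop of transcription. CLOCK and BMAL1, the product of Arntl, bind E-box sequences and switch on the Per and Cry genes, whose proteins gather in the nucleus and repress CLOCK and BMAL1. In a linked loop the nuclear receptors REV-ERB alpha and beta, encoded by Nr1d1 and Nr1d2, repress Arntl, while receptors of the ROR family activate it. Dbp is an output gene of the loop whose protein binds D-box sequences. In bone marrow the clock is known for the daily release of stem cells into blood, and Per1 is also known to respond within minutes to glucocorticoids and to signals that raise cAMP.

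Total counts ran from 12602067 to 16866534 per library. All 10 clock genes passed the filter on low counts, and the lowest count of any of them in a library was 57, for Dbp. Levels are given as CPM, counts relative to library size after scaling between libraries, and were compared by edgeR's quasi-likelihood test with Benjamini-Hochberg adjustment over 15533 genes, at a threshold of 0.05. By that test 1 clock gene, Per3, rose with carnosine and 4 fell, namely Per1, Nr1d2, Cry2 and Per2. Over all genes tested 39.4% were called, 19.6% as higher and 19.8% as lower, so 5 of 10 clock genes is a share near that of all genes. The libraries of the groups did not overlap for 6 of the 10, Per1, Per2, Cry2 and Nr1d2 below and Per3 and Cry1 above with carnosine, where 52.3% of all genes tested were separated in that way. A change of at least 1.5-fold was called for 3 of the 10 (Per1, Nr1d2 and Per3), against 13.4% of all genes. The median log2 fold change of the clock genes was -0.20 and that of all genes 0.00. In these bulk libraries fewer cells of a type and less RNA per cell cannot be told apart.

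**Figure D1:**
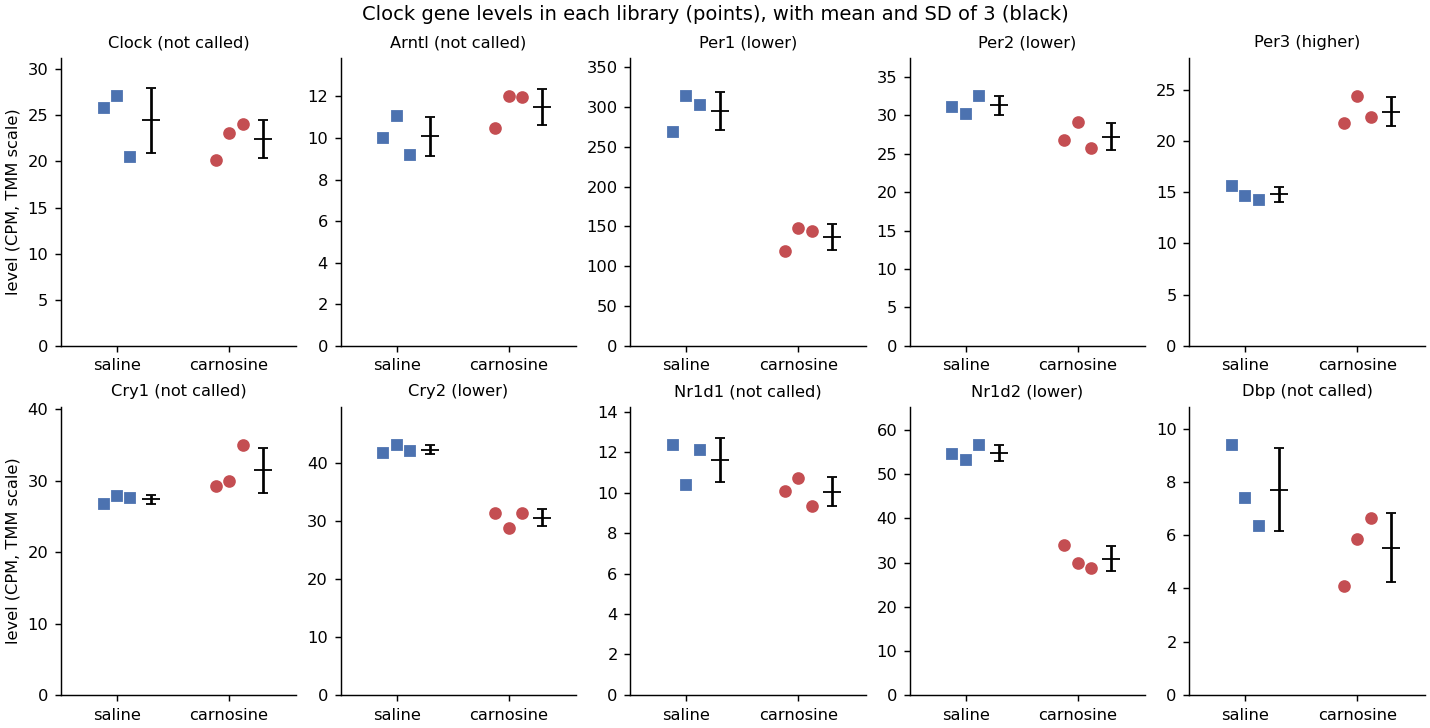
Level of each clock gene in CPM on the TMM scale (vertical axes from 0) in the 3 saline libraries (squares) and the 3 carnosine libraries (circles), with the mean and SD of each group in black and the call of edgeR's test in the title. Per1, Per2, Cry2 and Nr1d2 lie lower in every carnosine library, Per3 and Cry1 higher, and Clock, Arntl, Nr1d1 and Dbp overlap.

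Clock and Arntl encode the activators of the loop, and neither was called. Clock (ENSMUSG00000029238, chromosome 5, 76209868 to 76304792, GRCm38) was at 25.8, 27.1 and 20.5 CPM in the saline libraries and at 20.1, 23.1 and 24.1 CPM in the carnosine libraries. The ranges overlapped, with saline replicate 3 apart from the other two of its group. The log2 fold change was -0.13 (95% interval -0.41 to 0.15; edgeR adjusted p = 0.43). Arntl (ENSMUSG00000055116, chromosome 7, 113207465 to 113314126) was at 10.0, 11.04 and 9.18 CPM with saline and at 10.5, 12.04 and 11.97 CPM with carnosine. Its groups overlapped too, through carnosine replicate 1, which lay below saline replicate 2. The log2 fold change was 0.19 (95% interval -0.05 to 0.43; edgeR adjusted p = 0.19). Both intervals leave room for a small change in either direction. Arntl2 and Npas2, paralogs that can stand in for Arntl and Clock, had 8 and 21 counts over all 6 libraries and were not tested.

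The 3 period genes encode the repressor subunits that turn over daily, and they parted in direction. Per1 was the most abundant clock gene and had the largest change of the 10. Per1 (ENSMUSG00000020893, chromosome 11, 69095217 to 69109960) was at 268, 314 and 302 CPM with saline and at 119, 148 and 144 CPM with carnosine. Every saline library lay far above every carnosine library, and replicate 1 was the lowest in both groups. The level was 2.15-fold lower with carnosine, a log2 fold change of -1.11 ± 0.0937 (SE; edgeR adjusted p = 0.00012), and a larger absolute change than that of 94.0% of all genes tested.

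Per3 moved the other way. Its levels (ENSMUSG00000028957, chromosome 4, 151003652 to 151044665) were 15.6, 14.6 and 14.2 CPM with saline and 21.8, 24.4 and 22.4 CPM with carnosine. The groups stood apart, with at most a 1.12-fold range inside either. The level was 1.54-fold higher with carnosine, a log2 fold change of 0.62 ± 0.0753 (SE; edgeR adjusted p = 0.00066).

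Per2 stood at the threshold. Its levels (ENSMUSG00000055866, chromosome 1, 91415982 to 91459324) were 31.2, 30.2 and 32.6 CPM with saline and 26.8, 29.1 and 25.8 CPM with carnosine. The groups did not overlap, but the gap between saline replicate 2 and carnosine replicate 2 was small. The log2 fold change was -0.20 ± 0.0665 (SE; edgeR adjusted p = 0.049). The call was lost in 13 of 17 other settings (adjusted p from 0.034 to 0.28), among them the omission of saline replicate 1 (0.11), 2 (0.072) or 3 (0.13) and of carnosine replicate 1 (0.12) or 3 (0.14). With a correction for GC content and length the change shrank to -0.12.

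Since Per1 and Per3 moved in opposite directions, the sequences before their starts are set side by side. They are the RefSeq windows of up to 250 bases before the start (GRCm38.p6, 5′ to 3′ on the gene's strand), cut back where GENCODE M21 annotates an exon. Capitals mark the letters of any motif searched on both strands: the E-box CACGTG, the E′-box CACGTT, 4 forms of the D-box (TTATGTAA, TTACATAA, TTACGTAA and TTATATAA, of which the last resembles a TATA box), the nuclear receptor core AGGTCA, the cAMP response element TGACGTCA with its core TGACG, and the glucocorticoid response core AGAACA. RefSeq gives 2 starts for Per1.
Per1 first start, chr11:69098699-69098947, plus strand: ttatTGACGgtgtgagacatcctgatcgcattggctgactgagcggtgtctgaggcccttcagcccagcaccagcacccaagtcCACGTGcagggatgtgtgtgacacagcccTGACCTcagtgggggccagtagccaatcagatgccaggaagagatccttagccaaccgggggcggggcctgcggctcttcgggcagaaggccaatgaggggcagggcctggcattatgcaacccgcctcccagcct
Per1 second start, chr11:69099902-69100151, plus strand: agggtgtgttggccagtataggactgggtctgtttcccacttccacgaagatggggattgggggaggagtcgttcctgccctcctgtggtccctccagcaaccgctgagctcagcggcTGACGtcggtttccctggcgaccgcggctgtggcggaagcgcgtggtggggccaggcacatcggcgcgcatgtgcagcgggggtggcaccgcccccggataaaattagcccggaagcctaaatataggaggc
Per3, chr4:151044666-151044915, minus strand: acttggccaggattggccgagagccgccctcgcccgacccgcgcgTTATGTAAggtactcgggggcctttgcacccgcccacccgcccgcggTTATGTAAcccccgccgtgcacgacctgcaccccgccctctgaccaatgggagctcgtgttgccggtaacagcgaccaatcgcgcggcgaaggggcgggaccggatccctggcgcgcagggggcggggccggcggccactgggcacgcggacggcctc

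The window of the first Per1 start held an E-box, 166 bases before the start, an AGGTCA core in reverse and a TGACG core. The second held a TGACG core, 132 bases before the start. The Per3 window held the D-box TTATGTAA at 2 places, 205 and 158 bases before the start, and none of the other motifs. Of 32851 RefSeq windows of the same length, 6.02% held an E-box, 1.43% a D-box form, 14.0% an AGGTCA core and 17.8% a TGACG core. A match is a description of letters only. Of the 10 clock genes 9 matched the RefSeq table, with 13 windows, and Per2 was not among them. The full cAMP response element and the AGAACA core were found in 0 of the 13 windows, against 1.55% and 16.1% of all windows.

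The cryptochromes are the partners of the period proteins in repression, and here Cry2 fell while Cry1 was not called. Cry2 (ENSMUSG00000068742, chromosome 2, 92403646 to 92434043) was at 41.8, 43.2 and 42.1 CPM with saline and at 31.5, 28.9 and 31.5 CPM with carnosine. Its groups were far apart beside their narrow spread. The level was 1.38-fold lower with carnosine, a log2 fold change of -0.47 ± 0.0558 (SE; edgeR adjusted p = 0.00064).

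Cry1 (ENSMUSG00000020038, chromosome 10, 85131700 to 85185064) was at 26.7, 27.8 and 27.6 CPM with saline and at 29.3, 29.99 and 35.1 CPM with carnosine. All 3 carnosine libraries lay above the saline ones, and carnosine replicate 3 was the highest by a wide margin. The log2 fold change was 0.20 (95% interval 0.01 to 0.39; edgeR adjusted p = 0.086). Without carnosine replicate 3 it was 0.12 (edgeR adjusted p = 0.19), and in limma on the deposited FPKM values it passed the threshold (adjusted p = 0.042 on log2(FPKM + 1)). With a correction for GC content and length the change shrank to 0.09 (edgeR adjusted p = 0.46).

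The windows before the starts of the pair are shown because the genes differed in call. In both the E′-box appears in reverse, as AACGTG. The Cry1 window also held an E-box, 60 bases before the start, where the Cry2 window held none. Both held a TGACG core, in Cry2 in reverse (CGTCA) and in Cry1 8 bases before the start, outside the stretch shown. The E′-box was found in 3.85% of all windows.
Cry1, chr10:85185065-85185304, minus strand: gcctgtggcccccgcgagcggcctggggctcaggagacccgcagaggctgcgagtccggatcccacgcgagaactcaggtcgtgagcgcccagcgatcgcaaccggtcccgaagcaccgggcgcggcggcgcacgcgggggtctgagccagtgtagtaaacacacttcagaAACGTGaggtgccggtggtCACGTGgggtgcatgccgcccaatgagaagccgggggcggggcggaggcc
Cry2, chr2:92434070-92434319, minus strand: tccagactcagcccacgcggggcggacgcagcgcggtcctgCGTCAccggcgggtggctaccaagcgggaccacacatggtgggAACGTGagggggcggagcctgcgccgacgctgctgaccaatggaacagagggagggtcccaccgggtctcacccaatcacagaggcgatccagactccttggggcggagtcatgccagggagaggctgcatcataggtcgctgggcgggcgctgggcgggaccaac

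The REV-ERB receptors repress Arntl in the linked loop. Nr1d2 fell and Nr1d1 was not called. Nr1d2 (ENSMUSG00000021775, chromosome 14, 18204054 to 18239127) was at 54.6, 53.2 and 56.7 CPM with saline and at 34.0, 29.99 and 28.7 CPM with carnosine. No carnosine library came near the saline level. The level was 1.77-fold lower, a log2 fold change of -0.83 ± 0.0722 (SE; edgeR adjusted p = 0.00014), the second largest of the 10 after Per1 in absolute size.

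Nr1d1 (ENSMUSG00000020889, chromosome 11, 98767932 to 98775333) was at 12.4, 10.4 and 12.1 CPM with saline and at 10.1, 10.7 and 9.35 CPM with carnosine. The ranges overlapped through saline replicate 2. The log2 fold change was -0.21 (95% interval -0.45 to 0.03; edgeR adjusted p = 0.15). The 95% interval of Nr1d2 ran from -0.99 to -0.66, so those of the 2 receptors did not overlap. The window before the Nr1d2 start, shown because that receptor gene changed, held an AGGTCA core 77 bases before the start, the sequence that nuclear receptors of this kind bind. The Nr1d1 window held an E′-box in reverse, 28 bases before its start.
Nr1d2, chr14:18239128-18239356, minus strand: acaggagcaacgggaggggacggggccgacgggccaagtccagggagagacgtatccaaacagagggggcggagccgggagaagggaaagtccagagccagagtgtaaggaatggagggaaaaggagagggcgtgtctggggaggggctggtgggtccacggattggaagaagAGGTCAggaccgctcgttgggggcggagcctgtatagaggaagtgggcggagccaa

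Dbp, the output gene, was the least abundant of the 10 in CPM and varied most. Dbp (ENSMUSG00000059824, chromosome 7, 45705088 to 45710203) was at 9.39, 7.40 and 6.34 CPM with saline and at 4.10, 5.84 and 6.64 CPM with carnosine. The groups overlapped, since carnosine replicate 3 lay above saline replicate 3. Levels within a group spanned up to 1.62-fold, against at most 1.33-fold for any other clock gene. The log2 fold change was -0.49 (95% interval -0.99 to 0.01; edgeR adjusted p = 0.11), and it was -0.32 without saline replicate 1 and -0.31 without carnosine replicate 1. That interval holds both no change and a fall of about the size seen in Nr1d2. Dbp had 57 to 155 counts per library. The SD of its FPKM was 20.16% of the mean with saline and 23.45% with carnosine, above the counting error of 9.30% and 11.6%.

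**Figure D2:**
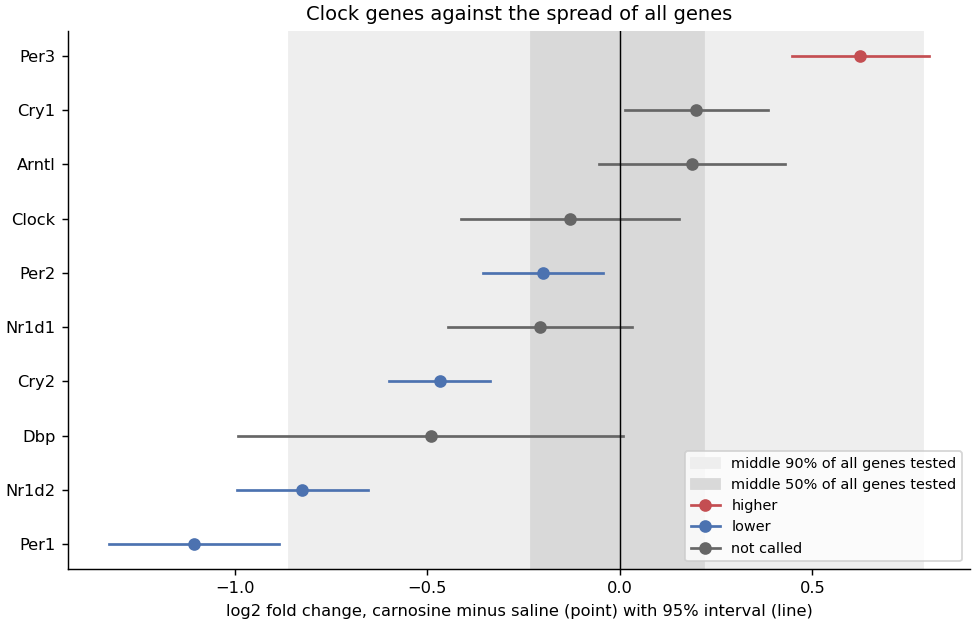
Log2 fold change of carnosine minus saline for each clock gene (point, horizontal axis) with its 95% interval (line), coloured by the call of edgeR's test. Shaded bands give the middle 50% (-0.23 to 0.22) and 90% (-0.86 to 0.79) of all 15533 genes tested, and Per1 at -1.11 is the only point outside the wider band.

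Levels of different genes were compared per length, on the deposited FPKM values. With saline the order was Per1 (34.9 ± 2.86 FPKM), Nr1d2 (7.81 ± 0.239), Cry1 (6.51 ± 0.145), Cry2 (6.004 ± 0.1198), Per2 (5.18 ± 0.189), Nr1d1 (3.25 ± 0.295), Dbp (1.27 ± 0.257), Arntl (1.16 ± 0.109), Per3 (1.14 ± 0.0568) and Clock (1.08 ± 0.157; SD, n = 3 each). Neighbours from Per1 down to Dbp did not overlap in any library, while Dbp, Arntl, Per3 and Clock overlapped in turn. With carnosine Per1 was at 16.88 ± 1.98 FPKM and still the highest, followed by Cry1 at 7.78 ± 0.769. Nr1d2 was in the second place with saline and in the fourth with carnosine, at 4.58 ± 0.412, where it overlapped with Per2 (4.69 ± 0.296) and with Cry2 (4.52 ± 0.220). Per3 (1.83 ± 0.111) stood above Arntl (1.38 ± 0.103) with no overlap, and Dbp (0.951 ± 0.223) stood last, where it overlapped with Clock (1.03 ± 0.0934). The length behind these FPKM values is longer than the joined exons in GENCODE M21 for all 10 genes, most for Dbp (5918 against 2993 bases) and Clock (22241 against 13727 bases). By the joined exon length Per1 was still the highest in both groups, and with saline Clock came before Per3 and Arntl was the last. With carnosine Nr1d2 was then in the third place, before Cry2 and Per2, and Dbp came before Clock and Arntl. The order of Per2, Nr1d2 and Cry2 with carnosine, and of the lowest genes in both groups, therefore depends on the length used.

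**Figure D3:**
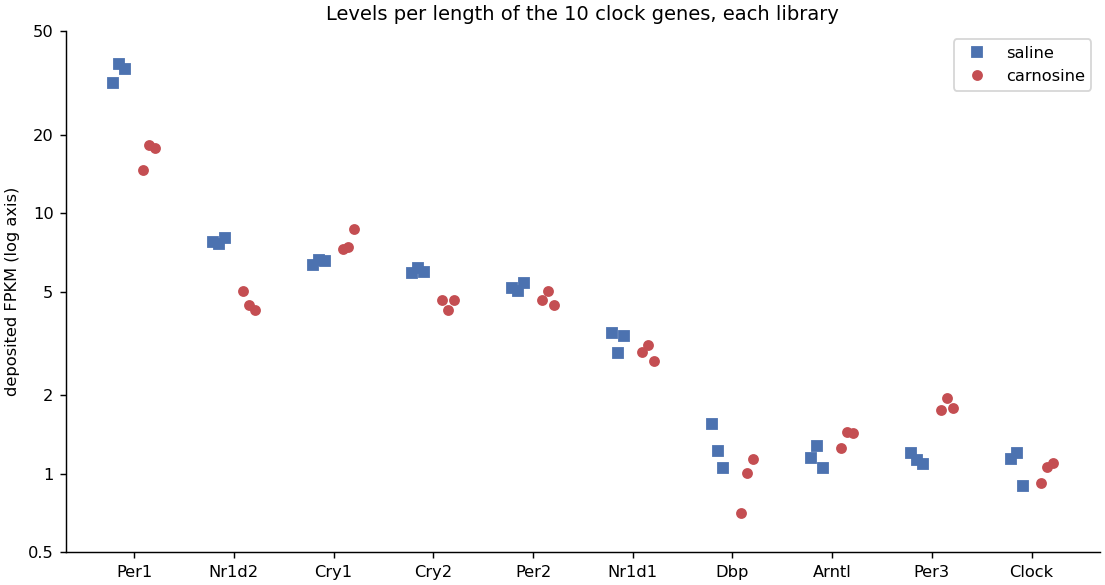
Deposited FPKM (log axis) of each clock gene in the 3 saline libraries (squares) and the 3 carnosine libraries (circles), ordered by the saline mean. Per1 stands highest in both groups, at 34.9 and 16.88 FPKM on average, and the lowest 4 genes with saline lie between 0.90 and 1.55 FPKM.

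Ratios of 2 clock genes within a library do not depend on the scaling between libraries, so 6 ratios were compared by the exact two-sided permutation test, which cannot go below 0.10 with 3 against 3 libraries. The ratio of Per1 to Per2 was 6.16, 7.44 and 6.64 with saline and 3.16, 3.64 and 3.996 with carnosine. That of Cry1 to Cry2 was 1.07, 1.08 and 1.101 with saline and 1.56, 1.74 and 1.87 with carnosine. Both ratios stood apart between the groups, and with saline the 2 cryptochromes were at almost equal FPKM. By the joined exon length Cry1 was at 8.03 and Cry2 at 6.56 with saline. The ratio of Nr1d1 to Nr1d2 was 0.445, 0.383 and 0.419 with saline and 0.581, 0.703 and 0.638 with carnosine. The ratio of the activator Arntl to Per2 ran from 0.196 to 0.254 with saline and from 0.272 to 0.323 with carnosine, and that of Clock to Arntl from 0.852 to 0.987 and from 0.732 to 0.769. These 5 ratios did not overlap and had the smallest p the exact test allows (0.10, and 0.12 after Benjamini-Hochberg adjustment over the 6 ratios). They are built from the same libraries and genes as the levels above and are no separate support. Cry1 to Cry2 had to stand apart, since every carnosine library lay above the saline ones for Cry1 and below them for Cry2. The ratio of Arntl to Nr1d1, genes that peak at opposite times of day in many tissues, overlapped (0.312 to 0.438 against 0.430 to 0.528; exact permutation p = 0.20, adjusted 0.20).

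**Figure D4:**
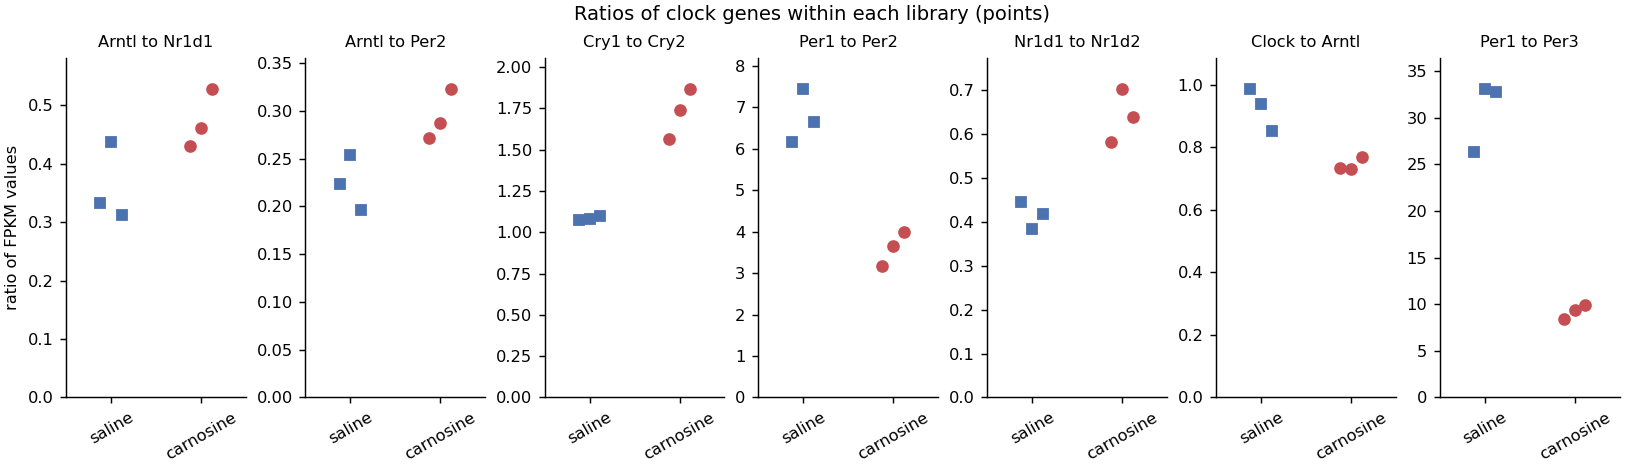
Ratio of the FPKM values of 2 clock genes within each library (vertical axes from 0), saline as squares and carnosine as circles, 3 libraries each. Only Arntl to Nr1d1 overlaps between the groups, and Per1 to Per3, added after the values were seen, runs from 26.4 to 33.1 with saline and from 8.37 to 9.90 with carnosine.

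Other genes of the clock were taken from 4 lists of 43 genes in all. The lists were chosen with earlier results of these data known, so their counts are a description and no independent support. Of these, 39 were tested, 4 rose and 18 fell, with a median log2 fold change of -0.18 where that of all genes was 0.00 and 19.6% of all genes rose and 19.8% fell. Among 12 further transcription factors and regulators of the loop, 9 were tested, 1 rose and 4 fell. Bhlhe40, also called DEC1, a repressor that competes for E-boxes, was at 219, 224 and 211 CPM with saline and at 47.6, 47.6 and 47.7 CPM with carnosine, a log2 fold change of -2.19 ± 0.0335 (SE). Every carnosine library lay far below the saline ones, and the call held in all 17 alternatives. Its relative Bhlhe41 was near 1 CPM and was not called (log2 fold change -0.67, edgeR adjusted p = 0.15).

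Nfil3, a repressor that binds the same D-box as Dbp, was at 29.1, 28.2 and 28.1 CPM with saline and near a lower, equally narrow level of 14.0, 14.8 and 14.6 CPM with carnosine. It fell by 0.98 ± 0.0593 (SE) on the log2 scale (edgeR adjusted p = 2.5e-05). Tef, an activator of the Dbp family, was at 33.0, 31.9 and 27.7 CPM and at 13.2, 20.7 and 22.7 CPM. Tef fell (log2 fold change -0.72 ± 0.188, SE; edgeR adjusted p = 0.021), but not without saline replicate 1 or 2 (adjusted p = 0.063 and 0.060). The third activator of that family, Hlf, also known as a stem cell gene, had a log2 fold change of -0.01 and was not called (edgeR adjusted p = 0.99). Its level was 32.7 CPM in saline replicate 3 and 17.5 and 18.3 CPM in the other saline libraries, and without replicate 3 it was higher with carnosine (0.33, adjusted p = 0.032).

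Rora, a receptor that activates Arntl, was at 23.6, 23.1 and 5.61 CPM with saline and at 1.94, 1.802 and 7.11 CPM with carnosine. Its call (log2 fold change -2.30 ± 0.668, SE; edgeR adjusted p = 0.030) came with overlapping groups, and it was lost without saline replicate 1 or 2 or carnosine replicate 1 or 2 (adjusted p from 0.085 to 0.091). Rorb, a receptor of the same family, had 0 counts. Cipc, which inhibits CLOCK, was the member that rose (0.55 ± 0.107, SE), from 27.6 ± 3.36 to 40.4 ± 3.79 CPM. Ciart, a repressor also called CHRONO, did not pass (log2 fold change -0.34, edgeR adjusted p = 0.067).

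The next list holds genes that control the clock proteins after translation. Of 14 listed kinases, ubiquitin ligase parts and proteases 13 were tested, 5 fell and 1 rose, a share called near the 39.4% of all genes. The casein kinases Csnk1e and Csnk1d, which mark period proteins for destruction, fell from 69.4 ± 3.64 to 53.7 ± 0.823 CPM and from 165 ± 3.06 to 143 ± 2.81 CPM (SD, n = 3 each). The kinase Gsk3b (log2 fold change -0.39 ± 0.0388, SE) and the ubiquitin ligase part Fbxw11 (-0.28 ± 0.0336) fell as well. The fifth was Csnk1a1 (-0.12 ± 0.0288, SE), which missed the threshold by DESeq2 (adjusted p = 0.079) and in limma on the FPKM values (-0.06, adjusted p = 0.20). The gene that rose was Prkaa1, a subunit of the energy sensor AMPK (0.17 ± 0.0449, SE), which missed it by DESeq2 (0.074) and without saline replicate 1 or carnosine replicate 1 or 3 (adjusted p from 0.059 to 0.061).

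Of 11 cofactors of the loop 7 fell and 1 rose, where 19.8% of all genes fell and 19.6% rose. The acetyltransferases Crebbp and Ep300, coactivators of CLOCK and BMAL1, fell from 182 ± 1.33 to 111 ± 6.58 CPM and from 249 ± 3.98 to 188 ± 4.73 CPM (SD, n = 3 each). Kdm5a fell by 0.36 and the RNA-binding Sfpq fell by 0.18 on the log2 scale, and Timeless, which also serves at replication forks, rose (0.40 ± 0.0455, SE). Ncor1, a nuclear receptor corepressor, fell by 0.11 on the log2 scale but lost its call without saline replicate 1 or carnosine replicate 2 or 3 (adjusted p from 0.051 to 0.054). Among 6 genes listed as rhythmic outputs, Coq10b and Nampt, the enzyme of NAD salvage, fell (log2 fold changes -1.20 and -0.20). The kinase Wee1 rose (0.39) and the other 3 were not called.

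**Figure D5:**
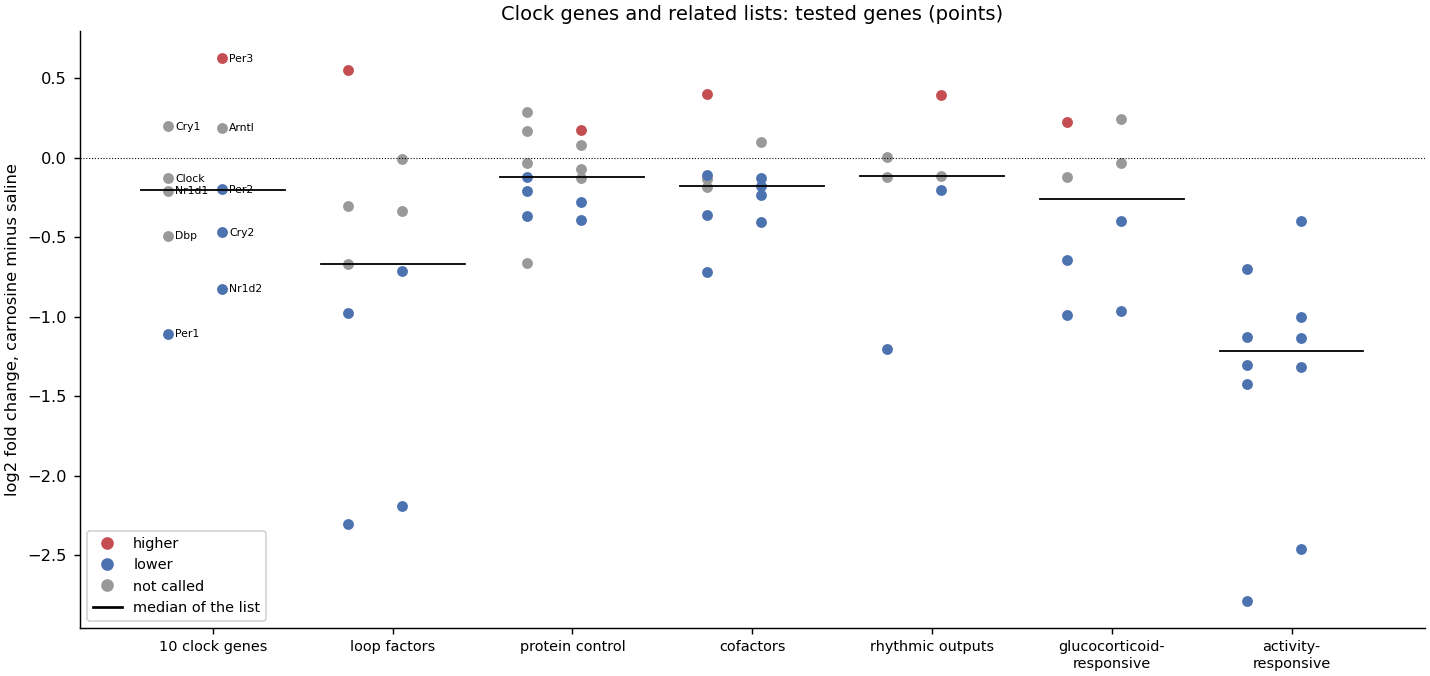
Log2 fold change of carnosine minus saline (vertical axis) of every tested gene (points) in the 10 clock genes, 4 lists of other clock genes and 2 lists of responsive genes (the 10 clock genes labelled), coloured by the call of edgeR's test, with the median of each list as a line. Points of the clock genes lie between -1.11 and 0.62, and all 10 activity-responsive genes lie below 0.

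Per1 is also a gene of the acute response, so lists of genes that answer glucocorticoids and neuronal activity or cAMP were set beside it. All 10 activity-responsive genes fell, with a median log2 fold change of -1.22. Of these, Nr4a1 went from 881 ± 1.53 to 160 ± 3.80 CPM, Egr1 from 917 ± 24.4 to 341 ± 4.07 CPM, Junb from 811 ± 17.6 to 325 ± 4.37 CPM and the cAMP-induced kinase Sik1 from 597 ± 12.9 to 242 ± 4.40 CPM (SD, n = 3 each). The fall of that list was known when it was chosen and is no independent support. The glucocorticoid list was also chosen with earlier results of these data known. Of 8 glucocorticoid-responsive genes 4 fell and 1 rose, where 39.4% of all genes were called and 19.8% fell. Klf9, Ddit4 and Zbtb16 fell by 0.99, 0.96 and 0.64 on the log2 scale and Dusp1, which stands in both lists, fell by 0.40. Fkbp5 rose (0.23 ± 0.0385, SE), and Tsc22d3 and Sgk1 were not called (log2 fold changes -0.12 and -0.03). The receptor gene Nr3c1 was not called either (0.25, edgeR adjusted p = 0.29), but passed without carnosine replicate 3 (0.44, adjusted p = 0.00095).

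The genes nearest to Per1 in profile, by root mean square distance of centred log2 CPM over the 6 libraries, were Nfkbie (0.0627), which encodes an inhibitor of NF-kB, the antibody segment Ighv1-61 (0.0676), whose reads may be shared with similar segments, and Rab37 (0.0871). Nfkbie was at 39.1, 42.3 and 40.4 CPM with saline and at 14.9, 20.5 and 19.7 CPM with carnosine. The nearest to Per3 were Cited4 (0.0301), Tmem181a (0.0428) and Champ1 (0.0432). Cited4 was at 8.79, 8.11 and 8.37 CPM and at 12.7, 13.8 and 12.51 CPM. In each pair the difference between the groups made up most of the profile.

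Some clock genes overlap others. Nr1d1 shares 263 exon bases with Thra on the opposite strand in GENCODE M21, and Thra had 688 to 1002 counts with saline and 733 to 816 with carnosine, several times those of Nr1d1. Dbp shares 539 exon bases with Sphk2 on the opposite strand, which had 435 to 514 and 482 to 493 counts. Cry2 shares 295 with D930015M05Rik, which had at most 21 counts, and Arntl shares 33 with Gm45355, which had at most 2. Camta1 (125 to 199 and 130 to 135 counts) lies over Per3, and the pseudogene Ube2n-ps1 (480 to 658 and 598 to 674 counts) and Gm43658 (at most 5) lie inside Clock, all on the gene's own strand and with 0 shared exon bases. The use of strand in counting is not stated, and the lengths behind the FPKM values are longer than these exons. Reads of a neighbour among the counts of these 6 clock genes were not tested.

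Markers of the gate and of other cells differed between the groups as well. Over all genes tested 39.4% were called, 19.6% as higher and 19.8% as lower. Of 8 gate and stem cell markers Kit rose and Flt3, Slamf1 and Mecom fell, while Ly6a, Cd34, Procr and Hlf were not called. Their summed level was much the same (939.8 to 977 CPM against 946 to 968). Kit, Cd34 and Flt3 made up most of that sum, so it does not reflect the less abundant markers. Slamf1 went from a mean of 28.56 to 14.99 CPM and Mecom from 20.87 to 10.36 CPM (log2 fold changes -0.93 and -1.01). Kit went from 329.6 to 378.1 CPM and Flt3 from 210.3 to 179.9 CPM. Flt3 and Cd34, whose proteins the gate excludes, were above 177 CPM in every library, and the stem cell marker Procr was below 6 CPM, so LT-HSC names the gate. All 4 myeloid progenitor markers rose (summed 3536 to 3574 CPM with saline and 7574 to 7820 with carnosine), and 3 of 4 megakaryocyte markers fell (228 to 243 and 108 to 114 CPM), with the fourth, Ppbp, below 1 CPM throughout. Of 4 erythroid markers 3 rose and 1 fell (summed 108 to 112 and 133 to 139 CPM). Of 5 neutrophil markers 1 rose and 3 fell (37.2 to 38.3 and 17.6 to 22.1 CPM). Among 6 plasma and B cell markers Xbp1 rose and Ighm fell (1115 to 1158 and 767 to 1071 CPM), and among 4 monocyte and macrophage markers Vcam1 rose and Csf1r fell (82.5 to 90.9 and 54.8 to 57.0 CPM), with C1qa below 1 CPM. T cell markers were near 0 in both groups (0.635 to 1.146 and 3.23 to 4.24 CPM, 2 of 3 higher), and of 5 endothelial and stromal markers 2 fell (99.2 to 109 and 89.4 to 95.1 CPM) and Cxcl12, Lepr and Col1a1 stayed below 1 CPM. Pecam1, which made up most of that sum, lost its call in 9 of 17 alternatives (adjusted p from 0.057 to 0.11), among them the omission of saline or carnosine replicate 1 or 2. The part of these cells in the clock gene differences was not tested.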

How the data were processed

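Poly-A RNA of cells in the stem cell gate was sequenced as stranded paired-end libraries, per the labels' protocols. The submitters' processing notes name CASAVA 1.8, HISAT2, StringTie, edgeR and GRCm38 without their roles. The deposited counts are whole numbers per gene that are not normalized, and the authors' deposited FPKM values equal the count per gene length and per library total, per the file headers and the values. Of the identifiers 96.2% lie at the GENCODE M21 position.

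Groups and replicate numbers come from the titles. The count test was edgeR's (4.0.16, R 4.3.3; filterByExpr, TMM, quasi-likelihood F-test, no covariate, Benjamini-Hochberg over 15533 genes holding 99.8% of counts). The standard error is the log2 fold change divided by the square root of F. The median squared difference between replicates of a group was 1.74 to 2.03 times that of sampling noise, so none was counted as a duplicate. The procedure was tested on simulated counts. Members and lists were chosen with earlier results of these data known. Named genes are the 10 clock genes, the loop factors, up to 4 called genes per other list by p-value, genes overlapping a clock gene and the 3 nearest profiles of at least 5 CPM. Csnk1a1, Prkaa1, Sfpq, Ncor1, Zbtb16, Tsc22d3, Sgk1, Nr3c1 and the cell markers named one by one were added after their values were seen. Some listed genes are not reported here by name. Results were recomputed with scaling by upper quartile or by DESeq2 size factors, with no filter or a minimum of 5 CPM in 3 libraries, and by other tests: DESeq2's Wald test (1.42.0), limma-voom (3.58.1) and limma-trend on log2(FPKM + 1) or log2(FPKM + 0.1). Further alternatives were a replicate block, a correction for GC content and length (splines of 5 degrees of freedom per library, 99.9% of genes with values), both together, a 1.5-fold minimum, and omission of every library in turn.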

Additional observations from a re-analysis of the deposited data

How the results depend on the processing

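All 10 clock genes kept their direction in all 17 alternatives run on each, and Per1, Nr1d2, Cry2 and Per3 were called in every one (log2 fold changes -1.17 to -0.96, -0.90 to -0.66, -0.49 to -0.34 and 0.40 to 0.69). The 0.40 of Per3 came with log2(FPKM + 1), which understates changes of low genes. Per2 lost its call in 13 alternatives. Arntl, Clock, Nr1d1 and Dbp were called in none. The count of clock genes called was 5, and with a fold change of at least 1.5 it was 3. With limma-trend on log2(FPKM + 1) or log2(FPKM + 0.1), 2 clock genes were called higher, Per3 and Cry1. Leaving out 1 library gave 4 to 5 calls. Limma-trend on FPKM, which changes the scale, the test and the genes tested (13348) at once, moved the split of all genes from 3038 higher and 3077 lower to 3387 and 2156 (log2(FPKM + 1)) and 3371 and 2144 (log2(FPKM + 0.1)), and of the other clock genes from 4 and 18 to 5 and 14.

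Deviations of same-numbered libraries of the 2 groups had correlations of 0.008 to 0.027, and those of differently numbered ones -0.025 to 0.004. All were small, and the numbers were not taken as pairs, although the same-numbered correlations were the highest. With the replicate block 4 clock genes were called, 1 higher and 3 lower, with 5231 genes in all against 6115, and 21 of the other clock genes against 22. Counting error was larger for Dbp than for any other clock gene, at 9.30% of its level with saline and 11.6% with carnosine. The SD of its FPKM between libraries was larger still, at 20.16% and 23.45% of the mean.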

Other observations

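Some genes of the clock lists varied within a group more than any of the 10 clock genes did. Rora was at 23.6 and 23.1 CPM in 2 saline libraries and at 5.61 CPM in saline replicate 3, and at 1.94 and 1.802 CPM in 2 carnosine libraries and at 7.11 CPM in carnosine replicate 3. Hlf was highest in the saline replicate in which Rora was lowest, at 32.7 CPM against 17.5 and 18.3 CPM. Nr3c1, the glucocorticoid receptor gene, was at 113 and 107 CPM in carnosine replicates 1 and 2 and at 68.9 CPM in replicate 3, with 79.1 to 82.8 CPM in the saline libraries. Among the markers of other cells, Jchain was at 584 and 576 CPM in carnosine replicates 1 and 2 and at 281 CPM in replicate 3, against 314 to 328 CPM with saline.

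The ratio of Per1 to Per3 by FPKM was added after the values were seen and is therefore given without a p-value. It was 26.4, 33.1 and 32.7 with saline and 8.37, 9.33 and 9.90 with carnosine. Its difference between the groups was -1.74 on the log2 scale, wider than that of the 6 planned ratios. That width follows from the choice of the pair, which joins the clock gene that fell most to the only one called higher.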
